A study of Mus musculus with 2 samples.

Results

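The 30 genes described here make cholesterol from acetyl-CoA, sense and move sterols, or belong to the lipid genes switched on by the sterol regulatory element-binding proteins (SREBPs). They are a fixed list of gene symbols, all found in GENCODE M21, and form 30 of the 21755 protein-coding genes on chromosomes 1 to 19 and X. Open chromatin was mapped by DNase-seq, in which the enzyme DNase I cuts accessible DNA, in 2 libraries of mouse adrenal gland. Both came from female B6CASTF1/J mice at an age of 4 days, the labels name no treatment, and the libraries are biological replicates 1 and 2 of 1 group. These animals are first-generation hybrids of a C57BL/6J and a CAST/EiJ parent, and the alleles were not separated. The sample descriptions mention 3 females per sample while both samples have the same donor identifier, and how animals were pooled remains unknown. There was no other group, so no comparison of conditions was possible and every value is given per library.

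Cholesterol synthesis begins with the mevalonate arm, which condenses acetyl-CoA units and builds isoprenoid diphosphates. The squalene and sterol arm joins these into squalene, closes the ring to lanosterol and trims lanosterol to cholesterol. When membranes are poor in sterol, SCAP escorts SREBP to the Golgi apparatus, where proteases free the part that enters the nucleus and binds sterol regulatory elements (SREs) and E-boxes at target promoters. INSIG proteins hold SCAP in the endoplasmic reticulum when sterol is plentiful. NF-Y, which binds CCAAT boxes, and Sp1, which binds GC boxes, are known partners of SREBP at these promoters. The adrenal cortex uses cholesterol as the substrate of every steroid hormone, taken from lipoproteins or made in the cell.

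Every one of the 30 genes was accessible at a promoter in both libraries, against 61.3% of all protein-coding genes. Among other genes weighted to a like CpG content of the promoter the share was 90.2%. The promoters of the 30 genes were rich in CCAAT boxes pointing against the gene. The letters CCAAT, read on either strand, lay inside the shared promoter peaks of 25 of the 30 genes, against 40.8% of all 13228 protein-coding genes with such peaks. The SRE letters TCACNCCAC lay there in 3, Hmgcs1, Srebf1 and Fasn, against 1.46%. A shared promoter peak is a replicate 2 peak near an annotated transcription start site (TSS) that a replicate 1 peak overlaps. The stretches that carry these strings and the footprints are printed 5′ to 3′ on the gene's strand, from the mm10 reference sequence, with the NF-Y string (CCAAT, or ATTGG where it points against the gene), the SRE, the E-box CACGTG and the cyclic AMP response element (CRE) TGACGTCA in capitals. Other strings, GC boxes included, are left in lower case. Positions in the text count from the gene's 5′ end in GENCODE M21, negative values lying upstream.

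Hmgcs1 and Srebf1 are shown because their SRE lay upstream of the GENCODE 5′ end in a shared promoter peak. In the RefSeq annotation Srebf1 starts at -1605 bp, so its SRE lies downstream of that start. The Hmgcs1 stretch is chr13:119690073-119690350 on the plus strand, and the Srebf1 site is chr11:60222849-60222877 on the minus strand.
Hmgcs1: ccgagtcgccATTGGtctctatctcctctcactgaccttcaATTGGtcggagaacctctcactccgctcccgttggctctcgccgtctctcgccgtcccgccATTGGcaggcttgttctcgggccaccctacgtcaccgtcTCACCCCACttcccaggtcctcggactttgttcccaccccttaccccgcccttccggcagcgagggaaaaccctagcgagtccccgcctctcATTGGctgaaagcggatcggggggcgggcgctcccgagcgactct
Srebf1: tgacgccgcgTCACCCCACtcgggggcct

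The next stretches, chosen after their values were seen, are shown because footprints of both libraries overlapped an NF-Y string in them. They are Hsd17b7 at chr1:169969243-169969380 on the minus strand, 3 sites of Fdft1 at chr14:63178046-63178074, chr14:63177996-63178024 and chr14:63177961-63177989 on the minus strand, and Fasn at chr11:120824621-120824649 on the minus strand. The Hsd17b7 stretch also holds an E-box between its NF-Y strings.
Hsd17b7: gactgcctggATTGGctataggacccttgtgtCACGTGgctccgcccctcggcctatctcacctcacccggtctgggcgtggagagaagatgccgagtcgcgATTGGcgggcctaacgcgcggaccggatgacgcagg
Fdft1 site 1: ctttccagctctCCAATcaaattctaggg
Fdft1 site 2: ctccggcttccgATTGGttaacgttttcc
Fdft1 site 3: gagcagctctggCCAATcaacgtccgtca
Fasn: ccgcgcgccgccATTGGgccaccgagaac

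The last stretches, also chosen after their values were seen, show a CRE under footprints of both libraries and pairs of NF-Y strings upstream of a 5′ end. Pmvk (chr3:89459074-89459101) and Idi1 (chr13:8885809-8885838), both on the plus strand, carry the CRE. Mvk (chr5:114444086-114444163, plus strand) and Sqle (chr15:59314906-59314984, plus strand) have both NF-Y strings against the gene, and Fdps (chr3:89102069-89102138, minus strand) has 1 in each orientation.
Pmvk: ggcggggccaTGACGTCAcatctgggcg
Idi1: tggcgcggccgTGACGTCAggcttgtgcta
Mvk: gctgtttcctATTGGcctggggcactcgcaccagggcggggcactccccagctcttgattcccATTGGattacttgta
Sqle: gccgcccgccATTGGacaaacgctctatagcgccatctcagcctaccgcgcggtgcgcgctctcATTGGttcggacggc
Fdps: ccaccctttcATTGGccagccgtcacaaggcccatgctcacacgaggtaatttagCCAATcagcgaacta

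The deposited peak lists held 46031 peaks in replicate 1 and 87387 in replicate 2, and shorter lists held 27765 and 50406. Signal was ranked within a library, since its scaling and the read depth were not stated. Among markers of the gland, 2 of 6 cortex genes had an accessible promoter (Nr5a1 and Cyp11a1, while Mc2r, Cyp11b1 and Hsd3b1 had no promoter peak in either library and Star had one in replicate 2 alone). Medulla genes also had 2 of 6 (Chga and Chgb; Th, Dbh and Pnmt had none). Of genes that mark other tissues, none of 4 liver genes, Lrp2 among 3 kidney genes and Plin1 among 3 adipocyte genes were accessible in both libraries. The share over all protein-coding genes was 61.3%. Among other genes in deciles 1 to 4 of promoter CpG number it ran from 0.230% to 45.7%. Markers not accessible in both libraries lay in these deciles, apart from Pnmt in decile 5. Nr5a1, Chga, Chgb and Lrp2 lay in deciles 5 to 10, and Cyp11a1 and Plin1 in decile 3. How far CpG content bears on these counts was not tested. With the shorter lists no cortex, liver, kidney or adipocyte marker was accessible in both, and the medulla count was again 2. The share over all protein-coding genes was then 54.8%. In bulk tissue, a site open in fewer cells and a site less open in each cell cannot be told apart.

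All 30 promoters were accessible, counted as a peak within 1 kb of any annotated TSS in both libraries, where 61.3% of all protein-coding genes were. With the shorter lists the count was again 30 of 30, against 54.8%. Over single libraries 30 of 30 members had such a peak in replicate 1 and 30 of 30 in replicate 2, against 62.2% and 66.3%. The members' promoters were also rich in CpG. They had a median of 63 CpG dinucleotides in the 1 kb around a TSS, taken at the TSS richest in them, against 50 over all genes. All lay in CpG deciles 5 to 10 of genes, where most promoters were accessible. Other genes, weighted to the CpG deciles of the members, were accessible in 90.2% of cases, or 82.4% with the shorter lists.

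**Figure D1:**
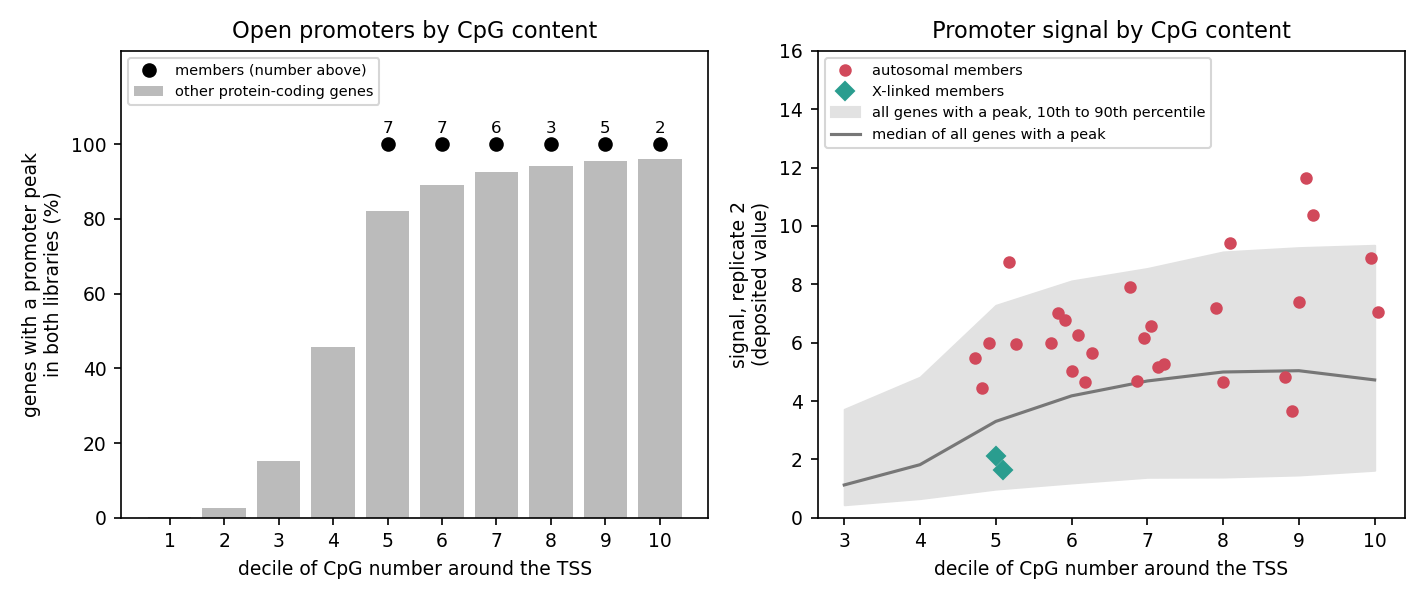
Left, share of other protein-coding genes with a promoter peak in both libraries (bars, percent) in each decile of CpG number around the TSS, with the members as points at 100% and their number above. Right, deposited signal of the strongest promoter peak in replicate 2 for the members, beside the median and the 10th to 90th percentile of all genes with a peak in deciles 3 to 10. Accessible promoters run from 82.2% to 96.0% of other genes in deciles 5 to 10, where all members lie, and the X-linked members lie below the median of their decile.

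At the 5′ end itself, 27 of the 30 genes had a peak within 1 kb in both libraries, against 56.8% of all genes. The exceptions were Pmvk, Fdft1 and Insig2, whose peaks lay at an annotated TSS further inside the gene. The Pmvk peak centred at 4549 and 4559 bp from the 5′ end in replicates 1 and 2, the Fdft1 peak at 1548 and 1528 bp and the Insig2 peak at 4739 and 4809 bp. At these 3 genes the deposited lists of false discovery rates held no position below 0.05 within 1 kb of the 5′ end in either library. At the other members the lowest listed rate ranged between 0.000153 at Ebp in replicate 1 and 1.65e-63 at Insig1 in replicate 2.

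Promoter signal, the authors' value of the strongest peak near a TSS, was on the high side. Its median over the members was 2.92 in replicate 1 and 5.98 in replicate 2, against 2.08 and 4.03 over all genes with a promoter peak. The median member stood at percentile 74.25 of these genes in replicate 1 and 72.4 in replicate 2, and at 70.0 when each member's percentiles were averaged. Inside their CpG deciles the medians were percentiles 75.3 and 74.9, and 24 of 30 members lay above the median of their decile in each library. The strongest peaks of the 2 libraries overlapped at all 30 genes. Signal in replicate 2 was 1.65 to 3.00 times that in replicate 1, with a median of 2.07 against 2.05 over all accessible genes, so the scale differed between libraries alike for members and for other genes.

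**Figure D2:**
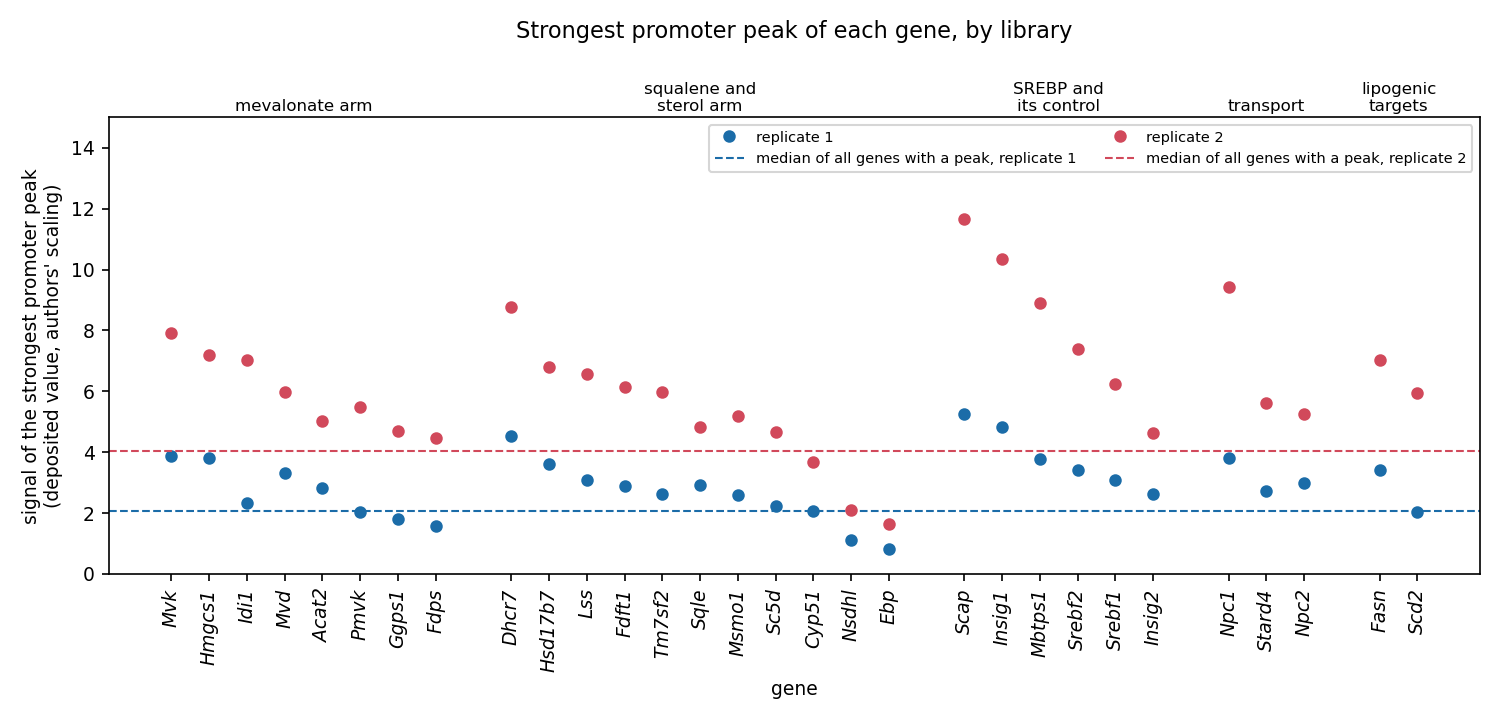
Deposited signal of the strongest promoter peak (vertical axis, authors' scaling) of each of the 30 genes in replicate 1 (blue) and replicate 2 (red), grouped by role. Dashed lines are the medians over all genes with a promoter peak, 2.08 and 4.03. Scap and Insig1 are highest, at 5.26 and 4.84 in replicate 1, and the X-linked Ebp and Nsdhl are lowest, at 0.819 and 1.12.

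In the mevalonate arm, Mvk and Hmgcs1 led and the later enzymes Fdps and Ggps1 trailed. Mvk, mevalonate kinase, reached 3.88 in replicate 1 and 7.91 in replicate 2. Hmgcs1, the cytosolic HMG-CoA synthase, had 3.80 and 7.18 from a peak centred on -99 and -109 bp that held 5 NF-Y strings, all against the gene. The Mvk peak also lay near the TSS of its neighbour Mmab, less than 1 kb away, so the signal cannot be assigned to 1 of them.

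Mvd, which decarboxylates mevalonate diphosphate, followed with 3.31 and 5.97. Idi1, the isopentenyl diphosphate isomerase, had 2.34 and 7.02, the largest ratio between libraries in the list at 3.00. Acat2, the cytosolic thiolase at the head of the route, had 2.82 and 5.01. These genes lay above the median of all genes in both libraries.

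Pmvk, phosphomevalonate kinase, had 2.04 and 5.47 at its internal TSS. Ggps1, which makes geranylgeranyl diphosphate for protein prenylation, had 1.80 and 4.68 at the strongest of its 4 peaks in each library. In replicate 1 some of these peaks overlapped each other. Fdps, the farnesyl diphosphate synthase, had 1.59 and 4.45. All 3 were below the median of all genes in replicate 1 and above it in replicate 2. The Ggps1 peak lay near a TSS of Arid4b, and the Fdps peak near one of the predicted gene Gm43738.

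In the squalene and sterol arm, signal was highest at Dhcr7 and lowest at the X-linked genes. Dhcr7, the 7-dehydrocholesterol reductase of the last step, had 4.54 and 8.78 at a peak shared with the 5′ end of Nadsyn1. It kept further shared peaks of its own inside the gene, 6485 and 7005 bp from the 5′ end in replicate 1, the farther with 2.69 and 4.13. Its NF-Y strings lay in these internal peaks and not at the 5′ end.

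Hsd17b7, a sterol 3-ketoreductase, had 3.62 and 6.79. Lss, lanosterol synthase, had 3.10 and 6.56. Fdft1, squalene synthase and the first enzyme committed to sterols, had 2.90 and 6.16 at a peak near an internal TSS. These values lay between percentiles 73.8 and 88.4 of all genes with a peak, over both libraries.

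Sqle, squalene epoxidase, had 2.93 and 4.84, the smallest ratio between libraries at 1.65. Tm7sf2, a sterol C14 reductase, had 2.64 and 5.98, and Msmo1, the C4-methylsterol oxidase, had 2.58 and 5.18. Sc5d, the lathosterol oxidase, had 2.22 and 4.65. Cyp51, the lanosterol 14-alpha-demethylase, had 2.07 and 3.67, at percentiles 49.7 and 45.4. By its strongest peak it was the only autosomal member below the median of all genes in both libraries, in replicate 1 by little.

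Nsdhl, a sterol dehydrogenase, had 1.12 and 2.11, and Ebp, the sterol delta8-delta7 isomerase, had 0.819 and 1.63. Both genes lie on the X chromosome, where promoter signal was lower in general. The median over X-linked genes with a peak was 1.08 in replicate 1 and 1.86 in replicate 2, against 2.13 and 4.13 over autosomal genes. Among X-linked genes Nsdhl stood at percentiles 54.6 and 56.7, and Ebp at 33.8 and 44.0. The Nsdhl peak also lay near a TSS of Cetn2.

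The genes that sense sterol and release SREBP had the highest signal of any role, with medians of 3.59 in replicate 1 and 8.14 in replicate 2 over 6 genes. Scap, the sterol-sensing escort, led the whole list with 5.26 and 11.65 at a single peak 180 bp wide in both libraries, at percentiles 99.3 and 98.4. Insig1, the SREBP target that retains SCAP, had 4.84 and 10.4 at a peak also near a TSS of Gm26608, which is not protein-coding. Mbtps1, the site-1 protease that makes the first cut in SREBP, had 3.77 and 8.89.

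Srebf2, which encodes the SREBP most tied to cholesterol genes, had 3.40 and 7.39. Srebf1, whose SREBP-1c form is most tied to fatty acid synthesis, had 5 promoter peaks in each library, and the strongest, with 3.10 and 6.25, lay inside the gene, 12081 and 12071 bp from the 5′ end, at another annotated TSS. The peak that holds the Srebf1 SRE, centred on -319 and -339 bp, had 1.71 and 3.95. Insig2, the second INSIG, had 2.63 and 4.64 at its internal TSS.

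Sterol transport genes were all above the median of all genes. Npc1, the lysosomal membrane protein that exports cholesterol, had 3.80 and 9.41. Npc2, its soluble partner in the lysosome, had 2.98 and 5.27 at a peak shared with Isca2. Stard4, a cytosolic sterol carrier, had 2.71 and 5.63.

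The lipogenic members differed in where their strongest peak lay. Fasn, fatty acid synthase, had 3.42 and 7.04 at its 5′ end. A second shared Fasn peak, with 3.22 and 4.36, lay inside the gene near another annotated TSS. The Fasn SRE lay in that second peak, at -156 bp from that TSS. Scd2, a stearoyl-CoA desaturase, had 2.05 and 5.95 at a peak centred on 1256 bp, downstream of both its annotated TSSs. Nearer to the 5′ end it had a peak of 1.94 and 2.67.

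The strongest peak was within reach (1 kb) of another protein-coding gene's TSS in 6 of the 30 genes, namely Mvk, Fdps, Ggps1, Nsdhl, Dhcr7 and Npc2, against 20.1% of all accessible genes. Peaks numbered 1.80 and 2.00 per member on average in replicates 1 and 2, against 1.89 and 2.28 over all genes with a peak, so the number of peaks was not above that of other genes.

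The other genes of the pathway gave a like picture. Of 32 genes for fatty acid synthesis, SREBP turnover and side branches of the mevalonate route, 31 had an accessible promoter in both libraries, against 61.3% of all genes. Idi2, a second isopentenyl diphosphate isomerase gene, was the exception and had no promoter peak in either library. Highest were Aacs, acetoacetyl-CoA synthetase, with 3.38 and 10.09, Mylip, a ubiquitin ligase that degrades lipoprotein receptors, with 3.61 and 8.78, and Erlin2, a membrane protein of the endoplasmic reticulum that takes part in sterol-dependent protein degradation, with 4.09 and 7.79. The median over these genes was 2.81 in replicate 1 and 6.23 in replicate 2.

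Of the 7 strings searched, CCAAT boxes showed the widest gap to other genes in percentage points inside the shared promoter peaks. In the 500 bp to either side of the 5′ end, 28 of 30 members held the NF-Y letters CCAAT, against 70.5% of all genes and 68.0% of other genes weighted to the members' CpG deciles. Inside the shared promoter peaks the count was 25 of 30, against 40.8% of genes with such peaks and 41.3% with that weighting. At least 2 such strings lay in the shared peaks of 20 members, against 17.1%. The sequence searched was of like length, with a median of 330 bp per member and 337 bp over all genes. The members held 5.17 NF-Y strings per kb of it, against 1.66 per kb.

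The 5 members without an NF-Y string in a shared promoter peak were Pmvk, Scap, Insig2, Npc1 and Mbtps1. Of the other members, Hmgcs1 and Idi1 had 5 strings, and Insig1, Fdft1, Fasn and Nsdhl had 4. At Fasn, 2 strings of opposite orientation overlapped each other by 2 letters.

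Orientation was uneven as well. Of the 63 NF-Y strings, 48 (76.2%) pointed against the gene, so that its strand reads ATTGG. Over all genes this held for 51.5% of 9131 pairs of a string and a gene. These pairs hold 7955 separate strings, since a string in peaks of more than 1 gene counts for each. The distances below use the same pairs. At least 1 string against the gene was present in 23 of 30 members, against 25.4% of genes with shared promoter peaks. In distance the shares were similar, as 76.2% lay upstream of the gene's nearest TSS, against 76.8%, and 47.6% lay between 50 and 200 bp upstream, against 40.5%. Strings of 1 gene share a promoter and are not independent.

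**Figure D3:**
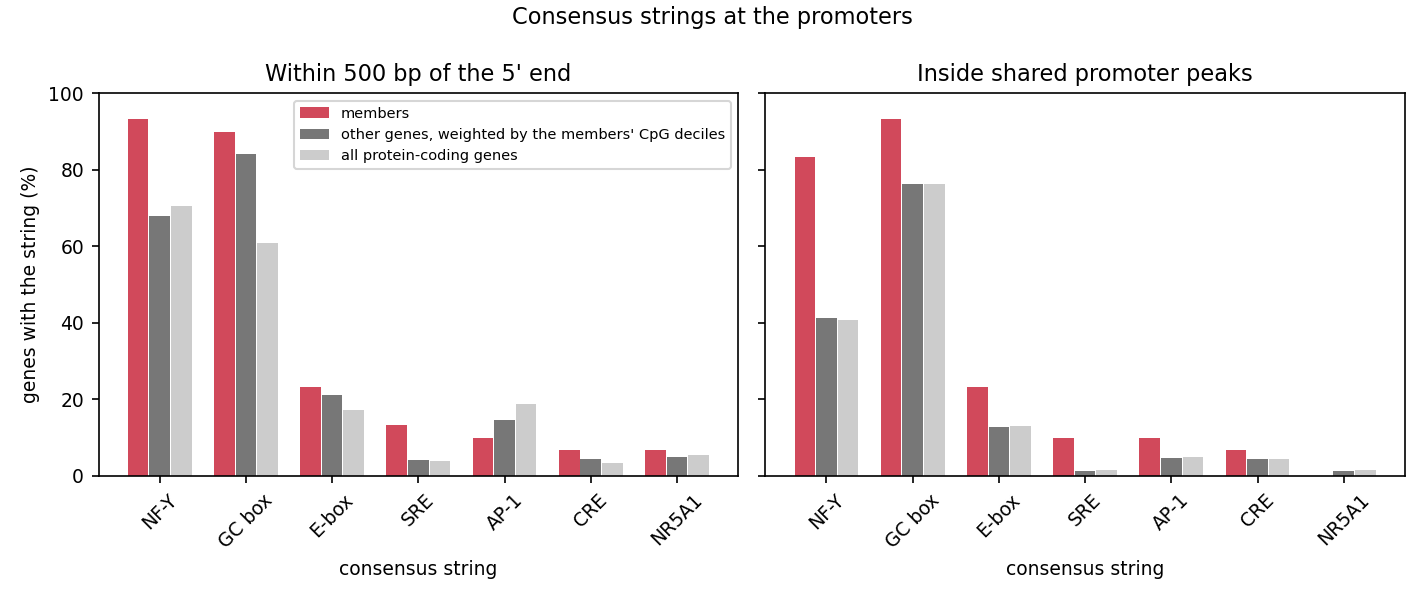
Share of genes (percent) with each consensus string within 500 bp of the 5′ end (left) and inside the shared promoter peaks (right), for the 30 members (red), for other genes weighted by the members' CpG deciles (dark grey) and for all protein-coding genes (light grey; on the right those with a shared promoter peak). For NF-Y the bars stand at 83.3%, 41.3% and 40.8% in the right panel, and NR5A1 has no bar for the members there.

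Around the 5′ end, the share of members with GC boxes, the letters GGGCGG of Sp1 sites, lay nearer to that of other genes of like CpG content. In the window around the 5′ end they were found in 27 of 30 members, against 60.9% of all genes but 84.2% of other genes with the CpG weighting. Inside the shared promoter peaks they were found in 28 members, against 76.3% of genes and also 76.3% with the CpG weighting. They numbered 5.99 per kb there, against 5.48, and 20 members held at least 2, against 53.4%. Fdps and Lss were the members without one.

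SREs and E-boxes were present in few members. The SRE letters TCACNCCAC lay within 500 bp of the 5′ end in 4 of 30 genes (Hmgcs1, Srebf1, Npc2 and Fasn), against 3.86% of all genes and 4.20% with the CpG weighting. The Npc2 string was outside the peaks. E-boxes, CACGTG, lay there in 7, against 17.2% and 21.2%, and inside shared promoter peaks also in 7, against 13%. Wholly inside widened footprints they lay in 3, Hsd17b7, Srebf1 and Fasn, against 5.55%. The members with an E-box in a shared peak were Fdft1, Hsd17b7, Ebp, Sc5d, Srebf1, Scap and Insig1. These letters are 1 form of each site, and a promoter without them may hold another form.

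Letters bound by other factors were found in few members, and the shares lay on both sides of the background. A count of 2 members is 6.67% of the 30, and a count of 3 is 10.0%. NR5A1, the regulator of steroid-producing cells, has a site read here as CAAGGTCA, which lay in the window of 2 members (Dhcr7 and Scd2) against 5.55% of all genes, and in no shared promoter peak of a member against 1.41%. The AP-1 letters TGANTCA lay in the window of 3 members, against 18.8%, and in shared promoter peaks of 3, against 5.02%. The CRE lay in the window of 2, Mvk and Idi1, against 3.35%, and in shared promoter peaks of 2, Pmvk and Idi1, against 4.34%. Wholly inside footprints widened to at least 20 bp, the CRE lay in Pmvk and Idi1, against 3.55% of genes with a footprint, NR5A1 letters in 0, against 0.352%, and AP-1 letters in 0, against 1.35%.

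Footprints, short stretches inside open chromatin where cuts are sparse, had the same median number, 5 per gene in each library, near the TSSs of the members and of all accessible genes. The mean number within 1 kb of a TSS was 5.80 per gene in replicate 1 and 6.30 in replicate 2, against 5.12 and 5.44 over all accessible genes, or 4.95 and 5.31 with the CpG weighting. The count ran between 1 and 12 in replicate 1 and between 1 and 13 in replicate 2, with Fdft1 and Ggps1 at the highest count in both and Dhcr7 and Srebf1 level with them in replicate 2. Members had a median of 4.5 annotated TSSs, against 3 over all protein-coding genes, accessible or not. How far the number of TSSs bears on counts and signal taken over any TSS was not tested.

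Overlap of these footprints between libraries was partial. Of 174 footprints of replicate 1 near the members' TSSs, 104 (59.8%) overlapped one of replicate 2, and of 189 of replicate 2, 102 (54.0%) overlapped one of replicate 1. Over all accessible genes the shares were 47.0% and 42.6%. The sites named in what follows were overlapped in both libraries unless 1 library is given.

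At NF-Y strings the footprints were mixed. A deposited footprint overlapped 34.9% of the members' 63 strings in replicate 1 and 27.0% in replicate 2, against 24.4% and 29.9% over all genes with shared promoter peaks. By gene, 12 of 30 members had a string overlapped in replicate 1 and 13 in replicate 2, against 13.7% and 16.2% of genes with shared promoter peaks. Overlap in both libraries was found for 6 strings (9.52%), against 15.3% over all genes. These 6 strings were 3 at Fdft1 and 1 each at Hsd17b7, Fasn and Stard4, so 4 of 30 members had one, against 9.09% of genes.

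Most of these overlaps were partial. At Fdft1, footprints of 20 and 28 bp in replicates 1 and 2 covered 1 of the 5 letters of the string of site 1. At site 2, footprints of 10 and 26 bp covered 3 and 5 letters, and at site 3, footprints of 11 and 9 bp that did not overlap each other covered 2 and 3. The Fasn string had 4 and 5 letters covered, and the Hsd17b7 string 2 and 2. When the footprints of either library were widened to at least 20 bp, 20 of 30 members had an NF-Y string wholly inside one, against 22.6% of the 14222 genes with a footprint. That count is per gene, and members held 5.17 NF-Y strings per kb of shared promoter peak, against 1.66. No share per string was computed for widened footprints. GC boxes lay wholly inside a widened footprint in 28 members, against 58% of genes with a footprint and 59.7% with the CpG weighting. Deposited footprints of both libraries overlapped 34.3% of the members' 73 GC boxes, against 21.9% over all genes, and 17 of 30 members had such a string, against 34.9% of genes.

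Single sites under footprints of both libraries were found for other factors too. The CRE of Pmvk lay wholly inside footprints of 22 and 23 bp in replicates 1 and 2, and the CRE of Idi1 wholly inside footprints of 15 and 14 bp. Such overlap was common for this string, at 64.9% of CREs in shared promoter peaks of all genes. Of all genes with shared promoter peaks, 2.92% had a CRE overlapped in both libraries. The Hsd17b7 E-box was overlapped only in part by footprints of 11 and 20 bp, which also overlapped a GC box beside it. It was 1 of 30 members, against 1.99% of genes with an E-box so placed. The Srebf1 E-box was overlapped by a footprint in replicate 2 alone.

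The Hmgcs1 SRE was the only SRE of a member overlapped by a deposited footprint, and it was overlapped in both libraries, against 0.144% of genes with an SRE so placed. It spans 119690214 to 119690222 on chromosome 13. The footprints begin upstream of it, at 119690202, and end at 119690218 in replicate 1 and at 119690214 in replicate 2, so they cover the sequence before it and its first letters, in replicate 2 the first letter only. No SRE of a member lay wholly inside a widened footprint, and 0.274% of genes with footprints had one that did. The SREs of Srebf1 and Fasn were overlapped in neither library.

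**Figure D4:**
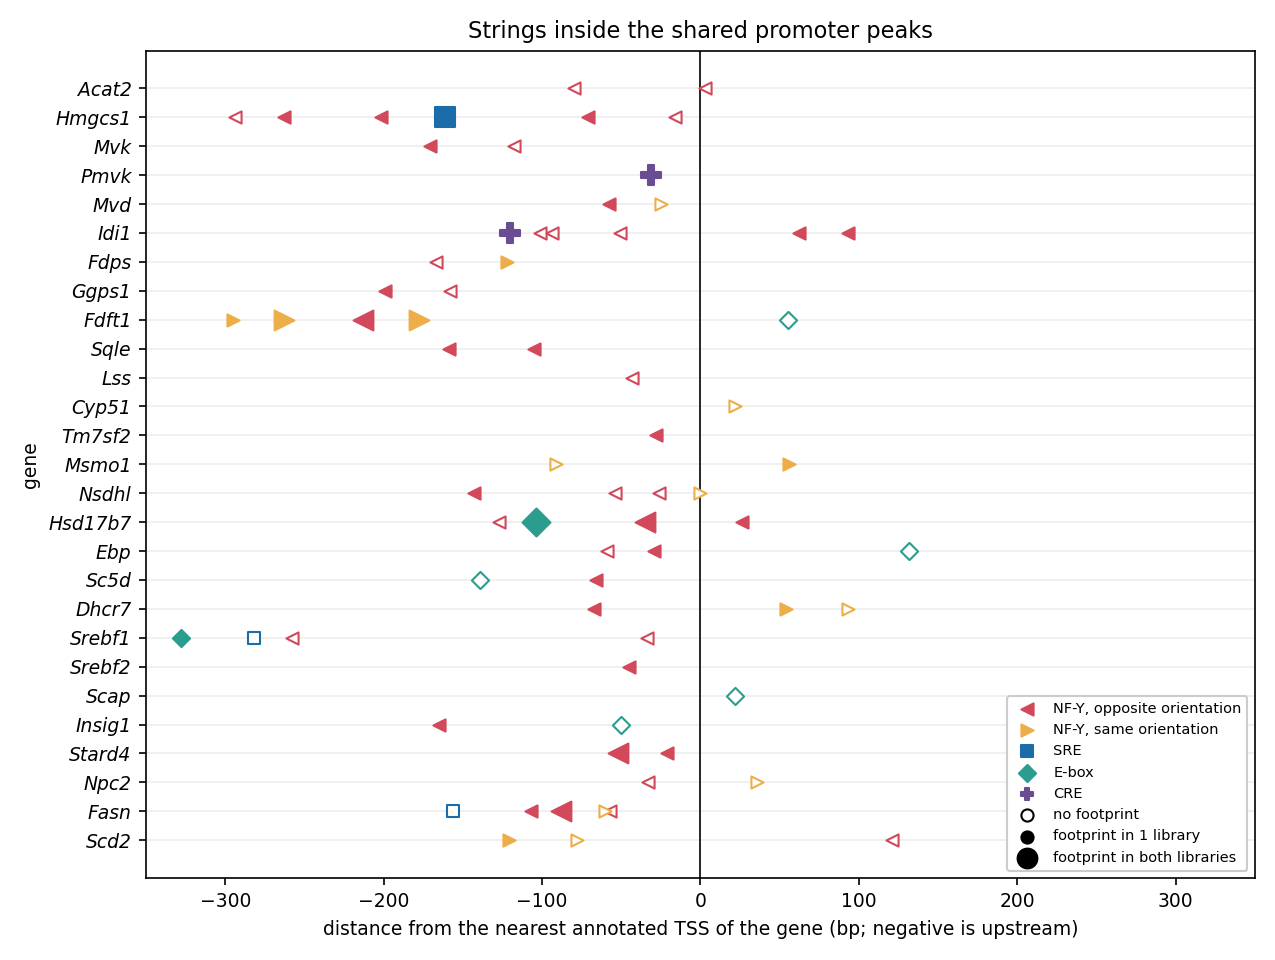
Distance of each NF-Y, SRE, E-box and CRE string inside the shared promoter peaks from the gene's nearest annotated TSS (horizontal axis, bp, negative upstream), 1 row per gene in order of role. Triangles pointing left are NF-Y strings against the gene, and open, small filled and large filled markers have footprints in 0, 1 and 2 libraries. Most NF-Y strings, 48 of 63, lie upstream of the TSS, and large markers stand at Hmgcs1, Pmvk, Idi1, Fdft1, Hsd17b7, Stard4 and Fasn. The 4 strings beyond 350 bp are left off.

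Away from promoters the members had no more elements than other genes. Shared distal peaks, over 1 kb from any annotated TSS and nearest to a TSS of a member, numbered 20 at 10 of the 30 genes, against 38.5% of all genes with at least 1. The mean was 0.667 per member and 0.785 over all genes, or 0.693 over genes with a like length of sequence nearest to them. The nearest gene is a convention, and none of these peaks is tied to a gene by these data.

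Scd2 had the most distal peaks, with 4. They centred on -26574, -12811, -9344 and 1854 bp from its nearest TSS. The peak inside the gene reached 1.94 in replicate 1 and 5.30 in replicate 2, and the peak at -9344 bp 2.14 and 4.42, so each was the strongest of the 4 in 1 library. Pmvk and Insig1 had 3 each, and Mvk, Insig2 and Sc5d had 2 each.

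Other strong distal peaks lay near Mvk, Insig1 and Srebf2. The Mvk peak, 9020 bp downstream of its nearest TSS, had 2.03 and 5.28, at percentiles 93.6 and 93.2 of shared distal peaks. The Insig1 peak, 19464 bp downstream, had 1.29 and 5.21. The Srebf2 peak, inside the gene and 17465 bp from its nearest TSS, had 1.68 and 4.39. Dhcr7, Mvd and Npc2 had 1 distal peak each, and the remaining 20 members had none.

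**Figure D5:**
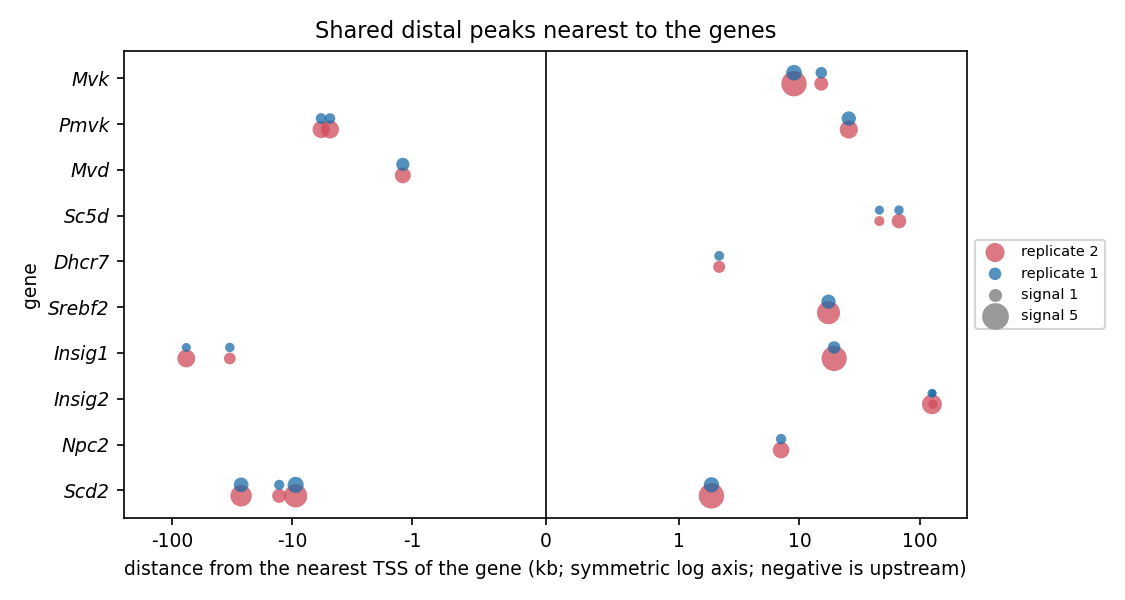
The 20 shared distal peaks nearest to members, by distance from the gene's nearest TSS (horizontal axis, kb, symmetric log axis, negative upstream), with marker area proportional to the deposited signal in replicate 1 (blue) and replicate 2 (red). Scd2 has peaks on both sides of its TSS, and the largest markers are those of Scd2, Mvk, Insig1 and Srebf2.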

How the data were processed

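The authors deposited, per library, a longer and a shorter peak list with 1 signal value per peak (peaks called per library), a footprint list and a list of false discovery rates (p-values after adjustment, for the cut rate around each position, listed below 0.05), on mm10 per the labels. Caller, version, signal scaling and read depth, all not given in the sources used here, leave no counting interval to compute. From these files, peaks and footprints were set against GENCODE M21 and the GRCm38.p6 sequence, the build of mm10, with Python 3.11.15, NumPy 2.4.6, pandas 2.3.3 and pysam 0.24.0. Overlap needed 1 bp. Background values cover all protein-coding genes on chromosomes 1 to 19 and X, also weighted to the members' deciles of CpG number within 1 kb or of the length of sequence nearest to a gene. Strings were searched on both strands. Strings on the CAST/EiJ genome were not seen, since the sequence searched is that of C57BL/6J.

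All 30 members are named with their values. Of other pathway genes those with no accessible promoter and the 3 with the highest mean signal are named. Members, lists and strings were chosen with earlier results of these data known, so shares are described beside their background with no p-value. The counting was tested on simulated data. Alternatives were other lists, windows and overlaps, each library left out, and equal numbers of peaks. Genes on the Y chromosome were left out, as were sequences from chromosome 18.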

Additional observations from a re-analysis of the deposited data

How the results depend on the processing

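The count of 30 accessible promoters was again 30 under 8 alternatives, 27 at the 5′ end only and 25 without peaks near another coding gene (50.2% of all genes). With deciles of observed to expected CpG at the 5′ end, 81.2% of weighted other genes were accessible, against 90.2%. The median percentile of signal, 70.0, was 66.6 with shorter lists and 72.4 to 74.25 in single libraries. It stayed above 50 for 23 to 27 of 30 members in all settings but the 5′ end only, with 20 of 27. Peaks per member, 1.90, were 1.73 with shorter lists and 1.38 at the 5′ end only, where fewer windows were searched. Distal peaks per member, 0.667, were 0.767 to 2.37 in single libraries, against 0.982 to 2.51 over all genes, and 0.333 with shorter lists, against 0.396; the higher value is from replicate 2 alone, which has more peaks. Footprints per member, 6.05 against 5.28 over all accessible genes, were 5.03 within 250 bp, against 4.01. At the 5′ end only they were 4.73, against 4.39. Inside widened footprints SREs were in 0 and E-boxes in 3 members. Members with an NF-Y string overlapped by a deposited footprint numbered 12 in replicate 1, 13 in replicate 2 and 4 in both (13.7%, 16.2% and 9.09% of genes with shared promoter peaks), settings chosen after the data were seen, against 28 with the string in the window. The other pathway genes gave 29 to 31 of 32. No paired analysis was possible because there is 1 group. With n = 2 libraries and depth not given, differences between members of similar signal cannot be resolved.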
